A study of Mus musculus with 32 samples.

Results

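The integrated stress response was examined in mouse quadriceps muscle through 10 genes: Chac1, Atf3, Atf4, Atf5, Ddit3, Trib3, Asns, Fgf21, Gdf15 and Sesn2. Each gene was found by its name among the 53801 gene IDs of the deposited tables, and each name matched 1 ID. Chac1 was selected on its lower level in Col6a2-/- muscle at 25 weeks, so that difference is given here as values without a test. The other 9 genes were named beside it as genes of the same pathway. They and the gene lists below were chosen with earlier results of these data known, so their tests may not be independent of that choice.

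Muscle came from 32 mice, wild type (WT) or homozygous for the Col6a2 tm1(KOMP)Vlcg allele (Col6a2-/-), which removes a chain of collagen VI, a matrix protein around muscle fibres. The allele was made in C57BL/6N mice and bred for 5 backcross generations onto C57BL/6J, and both genotypes descended from heterozygous breeders, so the deletion was present in all cells from conception. The 8 groups were WT or Col6a2-/- mice, female or male, at 5 or at 25 weeks, with 4 mice in each and 1 library per mouse from cryosections of snap-frozen quadriceps. Because the whole tissue was lysed, fewer cells of a type and less RNA per cell cannot be told apart in any result below.

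In the integrated stress response, kinases that sense amino acid shortage, unfolded protein in the endoplasmic reticulum, double-stranded RNA or haem and mitochondrial stress phosphorylate the translation factor eIF2α. General translation then falls while ATF4, whose mRNA carries upstream reading frames, is translated more, so that ATF4 activity can rise with no change of its mRNA. ATF4 and its partners, among them CHOP, the product of Ddit3, bind C/EBP-ATF response elements in genes of amino acid supply and stress. In skeletal muscle the response is known for its secreted products, Fgf21 and Gdf15, in mitochondrial and other myopathies.

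In the 250 bases before the start, the promoters of 4 members held the core of that element, TTNCATCA (N is any base; its reverse strand reads TGATGNAA), and are shown because 3 of these members, Chac1, Fgf21 and Asns, differed between the genotypes at 5 weeks. Of these 3, Chac1 was lower in Col6a2-/- muscle, whereas Fgf21 and Asns were higher, so the match did not go with 1 direction. The calls of Chac1 and Asns were lost in several of the fits given below. Gdf15 was also higher at 5 weeks but held no match, whereas Atf3 held a match but was not called. The RefSeq promoter table (GRCm38.p6, from 250 bases before to 50 bases after each start) covered all 10 members. The stretches are written 5′ to 3′ on the gene's own strand, with the matching bases in capitals.
Chac1: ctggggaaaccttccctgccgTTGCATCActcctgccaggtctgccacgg
Atf3: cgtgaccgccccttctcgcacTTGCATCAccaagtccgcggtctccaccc
Fgf21: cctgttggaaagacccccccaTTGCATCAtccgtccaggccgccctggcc
Asns: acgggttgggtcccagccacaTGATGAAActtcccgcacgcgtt

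The Chac1 stretch lies at chr2:119351028-119351077 on the plus strand, with the first matching base at position -193 from the start. The Atf3 stretch lies at chr1:191183415-191183464 on the minus strand, with the match at -110. The Fgf21 stretch lies at chr7:45615601-45615650 on the minus strand, with the match at -139. These 3 genes carried the identical run TTGCATCA in forward orientation, whereas Asns carried the reverse form at -23 (stretch chr6:7693210-7693253, minus strand). Trib3 held a match as well, but after its start, at position 15. Of all 32851 promoter windows in the table, 1304 (3.97%) held the core on either strand, and 1134 (3.45%) held it in the 250 bases before the start. A match is a description of letters only, and the absence of one in the windows of Atf4, Atf5, Ddit3, Gdf15 and Sesn2 says nothing of whether a factor acts there.

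Values are in TPM, an abundance of transcripts that the authors scaled for gene length and library total. Differences are on the log2(TPM + 1) scale from one limma model over all 32 libraries, Col6a2-/- minus WT with the sexes weighted equally. A gene is called when its two-sided adjusted p (Benjamini-Hochberg over all tested genes) is under 0.05. Of the 10 members, 6 had at least 1 TPM in at least 4 libraries and were tested with 12817 genes: Chac1, Atf3, Atf4, Atf5, Ddit3 and Asns. Trib3, Fgf21, Gdf15 and Sesn2 were below that level and were tested in a second fit of 32958 genes with no limit on TPM. This scale understates the change of such low genes.

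Col6a2 itself checked the labels: it had at least 6.60 TPM in every WT library and at most 0.171 in every Col6a2-/- library. The ratio of deposited coverage to FPKM, a relative measure of depth, ran from 7.29 to 12.9 in WT and 7.45 to 13.7 in Col6a2-/- at 5 weeks, and from 6.78 to 10.4 and 6.78 to 10.1 at 25 weeks. The genotypes differed widely at 5 weeks: 25.4% of tested genes were called, 2979 higher and 274 lower in Col6a2-/-. At 25 weeks 4.70% were called, 573 higher and 30 lower. The median tested gene was shifted by 0.15 at 5 weeks and 0.082 at 25 weeks. Under median-of-ratios size factors the 5-week median was -0.0016 and the calls split into 1549 higher and 1480 lower, so the 5-week changes of Chac1 and Asns are also given relative to the median gene. Myofibre genes were abundant everywhere (summed TPM of 10 markers from 25713 to 49153).

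At 5 weeks 2 of the 6 tested members were called, a share near the 25.4% of all tested genes (23.2% higher and 2.14% lower): Chac1 was lower and Asns higher in Col6a2-/- muscle, and both calls were lost in several of the fits given below. In the fit without a limit on TPM, where 11.2% of genes were called, the hormones Fgf21 and Gdf15 were higher. Gdf15 stayed at or below 0.178 TPM, and its call was lost in some of the fits given below. The transcription factors Atf4, Atf5, Ddit3 and Atf3 were not called at either age.

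Chac1 (ENSMUSG00000027313, GRCm38 chromosome 2, 119351229 to 119354381) encodes a γ-glutamylcyclotransferase that breaks down glutathione and is a target of the ATF4 and CHOP branch. At 5 weeks WT females had 4.11, 14.4, 5.99 and 6.29 TPM (replicates 1 to 4), and Col6a2-/- females had 4.77, 2.05, 2.15 and 7.45 TPM. WT males had 1.21, 3.06, 5.74 and 8.62 TPM, and Col6a2-/- males had 3.27, 0.394, 0.407 and 3.51 TPM. The genotypes overlapped in both sexes, but all 8 Col6a2-/- libraries lay below the WT mean TPM of their sex (7 of 8 below the mean on the log2 scale), and 2 males lay under every WT library. The mean was 3.0 ± 2.34 TPM in Col6a2-/- against 6.17 ± 4.0 in WT (SD, n = 8). On the log2 scale Chac1 changed by -0.88 (SE 0.301, limma adjusted p 0.0324), or by -1.02 relative to the median gene, and the size depended on the pseudocount (-1.23 with 0.1 and -0.46 with 5, both called).

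This 5-week call was close to the threshold. The change was -0.77 in females (limma adjusted p 0.225) and -0.99 in males (0.191), so neither sex alone passed. The call was lost in the fit without a TPM limit (adjusted p 0.0754) and in a fit of the 16 libraries at 5 weeks alone (0.0945). It was also lost when WT female 2 (adjusted p 0.0796), WT male 3 (0.0660), WT male 4 (0.0866), Col6a2-/- female 2 (0.0841), Col6a2-/- female 3 (0.0647), Col6a2-/- male 2 (0.0726) or Col6a2-/- male 3 (0.0843) was left out. Over all fits with 1 library left out, the change lay between -1.07 and -0.72.

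At 25 weeks, the age on which Chac1 was selected, WT females had 12.9, 14.02, 20.0 and 10.9 TPM and Col6a2-/- females had 8.41, 5.57, 5.72 and 4.93 TPM. WT males had 15.3, 11.9, 18.3 and 12.4 TPM, and Col6a2-/- males had 7.45, 3.64, 3.86 and 10.7 TPM. All 8 Col6a2-/- libraries lay under all 8 WT libraries, which was so for 0.0312% of tested genes. That separation describes the values that chose the gene. The mean was 6.28 ± 2.40 against 14.5 ± 3.20 TPM (SD, n = 8), a difference of -1.13, with -1.10 in females and -1.15 in males.

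**Figure D1:**
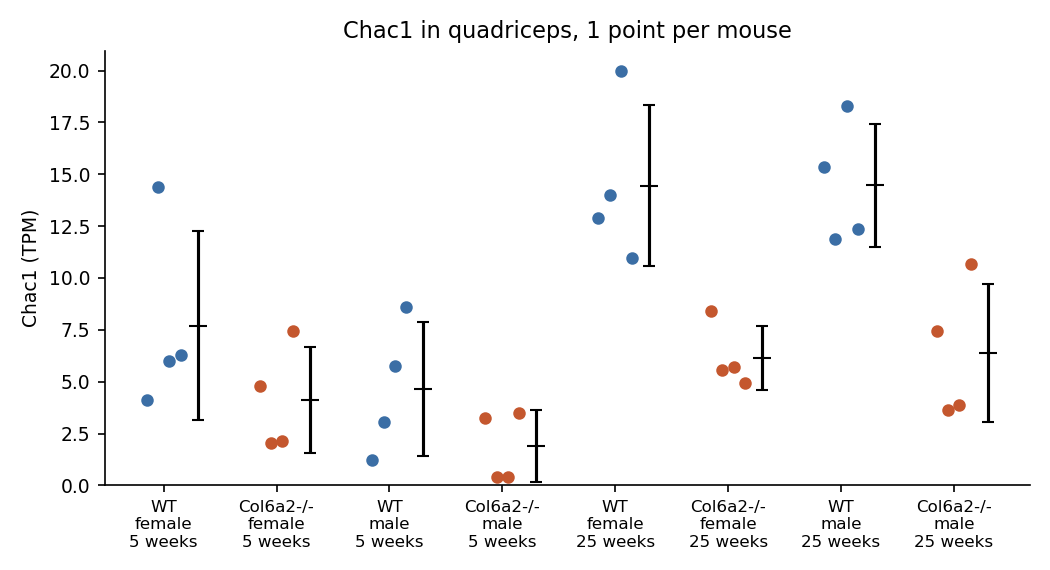
Chac1 level in TPM (vertical axis, linear) in each of the 32 mice, by genotype, sex and age. Points are mice in the order of replicates 1 to 4, and the black bar beside them is the group mean with its SD (n = 4). The Col6a2-/- mice at 25 weeks, from 3.64 to 10.7 TPM, lie below all WT mice of that age, from 10.9 to 20.0 TPM, while the genotypes overlap at 5 weeks.

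Chac1 was also higher at 25 weeks than at 5 weeks in both genotypes, by 1.28 in WT and 1.04 in Col6a2-/-, and the genotype difference at 25 weeks minus that at 5 weeks was -0.25 (values only, because the 25-week libraries chose the gene). Ordered by mean TPM, the groups were WT males at 25 weeks (14.5 ± 2.97), WT females at 25 weeks (14.5 ± 3.89), WT females at 5 weeks (7.69 ± 4.56), Col6a2-/- males at 25 weeks (6.40 ± 3.33), Col6a2-/- females at 25 weeks (6.16 ± 1.54), WT males at 5 weeks (4.66 ± 3.23), Col6a2-/- females at 5 weeks (4.10 ± 2.56) and Col6a2-/- males at 5 weeks (1.89 ± 1.73; SD, n = 4). Every pair of neighbours in this order overlapped within 1 SD. Over both sexes, Col6a2-/- muscle at 25 weeks (6.28 ± 2.40) had a mean close to that of WT muscle at 5 weeks (6.17 ± 4.0; SD, n = 8). Males and females did not differ beyond the threshold (-0.41, limma adjusted p 0.430, 95% interval -0.84 to 0.028).

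Asns (ENSMUSG00000029752, GRCm38 chromosome 6, 7675169 to 7693254) encodes asparagine synthetase, an ATF4 target that makes asparagine. At 5 weeks WT females had 1.05, 0.793, 1.35 and 1.58 TPM and Col6a2-/- females had 1.83, 1.65, 2.54 and 0.836 TPM. WT males had 1.78, 0.844, 0.726 and 1.27 TPM, and Col6a2-/- males had 2.30, 1.64, 1.96 and 1.51 TPM. The genotypes overlapped, with 7 of 8 Col6a2-/- libraries above the WT mean TPM of their sex and female 4 below it. The mean rose from 1.17 ± 0.386 to 1.78 ± 0.518 TPM (SD, n = 8). Its change was 0.35 on the log2 scale (SE 0.116, limma adjusted p 0.0269), or 0.21 relative to the median gene, and was 0.57 with pseudocount 0.1 and 0.13 with pseudocount 5, both called.

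The Asns call depended on the scaling. It was lost with median-of-ratios size factors (change 0.23, adjusted p 0.118), with values rescaled without the 100 most abundant genes (0.26, 0.0810) and with quantile normalization (0.17, 0.244). It was lost as well in the fit without a TPM limit (adjusted p 0.0544), with the 16 libraries at 5 weeks alone (0.0821), and when WT female 1 (0.0501), WT female 2 (0.0625), WT male 2 (0.0594), WT male 3 (0.0663), Col6a2-/- female 1 (0.0516), Col6a2-/- female 3 (0.0681), Col6a2-/- male 1 (0.0687) or Col6a2-/- male 3 (0.0502) was left out. The direction held in every one of these fits.

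Asns showed a change of the same size at 25 weeks that was not called. WT females had 1.57, 1.48, 1.66 and 1.06 TPM and Col6a2-/- females had 2.47, 1.89, 1.61 and 1.43 TPM. WT males had 0.755, 0.646, 0.923 and 0.880 TPM, and Col6a2-/- males had 1.71, 1.10, 1.81 and 1.39 TPM. The females overlapped and the males did not, but the share of all tested genes that separate in this way within a sex was not counted. In males alone the change was not called (0.47, limma adjusted p 0.109). The change was 0.34 (SE 0.116, limma adjusted p 0.0869), with 7 of 8 libraries above the WT mean TPM of their sex (8 of 8 above the mean on the log2 scale). It passed in a fit of the 16 libraries at 25 weeks alone (0.0224) and when Col6a2-/- female 4 at 5 weeks was left out (0.0385).

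Fgf21 (ENSMUSG00000030827, GRCm38 chromosome 7, 45613886 to 45615490) encodes a hormone that muscle can secrete under mitochondrial or amino acid stress. It was listed above 0 in all 8 Col6a2-/- libraries at 5 weeks and in 1 other library of the 32. Col6a2-/- females had 0.879, 0.434, 0.774 and 0.327 TPM, and Col6a2-/- males had 1.13, 0.848, 0.598 and 0.647 TPM. WT male 1 at 5 weeks had 0.0566 TPM, and the other 23 libraries, among them all 16 at 25 weeks, were listed at 0. The genotypes were separate at 5 weeks, as were, in that direction, 1.18% of the 12817 genes above the TPM limit, which do not include Fgf21. No fold is given against groups listed at 0.

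The Fgf21 difference at 5 weeks was 0.74 on the log2(TPM + 1) scale (SE 0.0529, limma adjusted p 5.7e-10, fit without a TPM limit). An exact permutation test of the 16 libraries at 5 weeks, added after most libraries were seen to be at 0, gave a two-sided p of 0.000155, the smallest that the 12870 splits allow. The gene was called in females (0.67, limma adjusted p 7.7e-06, 4.30% of genes called) and in males (0.82, 1.0e-07, 2.61%), and the exact permutation test gave a two-sided p of 0.0286 in each sex, the smallest that 4 mice against 4 allow. In 5 of the 8 groups every library was listed at 0, WT females at 5 weeks among them, so limma's pooled SE (0.0529 over both sexes) rests largely on groups without spread, while the SD in Col6a2-/- at 5 weeks was 0.240 in females and 0.187 in males on the log2(TPM + 1) scale. The limma p-values of Fgf21 are therefore too small. It fell between 5 and 25 weeks in Col6a2-/- muscle (-0.75, limma adjusted p 4.2e-10, 16.8% of genes called), and its genotype change differed between the ages (-0.74, limma adjusted p 1.4e-06, 0.349% of genes called). The call at 5 weeks over both sexes, that with age and that of genotype by age held in every alternative fit and with each library left out. The level was low all the same: the mean read depth over the gene was 2.47 to 9.01 in the 8 Col6a2-/- libraries and 0.547 in WT male 1. The median relative depth at 5 weeks was 8.95 in Col6a2-/- and 11.1 in WT libraries.

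Gdf15 (ENSMUSG00000038508, GRCm38 chromosome 8, 70629393 to 70632456), a second secreted hormone of the pathway, stayed at or below 0.178 TPM, and 19 libraries were listed at 0. At 5 weeks Col6a2-/- females had 0.146, 0.178, 0.173 and 0 TPM and Col6a2-/- males had 0, 0.0505, 0.0969 and 0.0573 TPM. WT females had 0, 0.0273, 0.0200 and 0 TPM, and WT males had 0, 0, 0.0383 and 0.0583 TPM. The mean read depth over the gene was at most 1.68 in any library. Of the Col6a2-/- libraries at 5 weeks, 4 lay above every WT library and 2 were listed at 0. The difference was 0.093 (SE 0.0249, limma adjusted p 0.0153 in the fit without a TPM limit), and the exact permutation test gave a two-sided p of 0.0256. It was 0.15 in females (limma adjusted p 0.0158, exact permutation p 0.143) and 0.037 in males (0.704, exact 0.400), and that contrast between the sexes was not itself called over both ages (change -0.057, limma adjusted p 1.0 for genotype by sex). The 5-week call was lost with quantile normalization (0.0704) and with the 16 libraries at 5 weeks alone (0.104). Like Fgf21, Gdf15 fell with age in Col6a2-/- muscle (-0.11, limma adjusted p 0.00239, exact permutation p 0.00699 over 16 libraries), but its genotype by age term was not called (-0.10, 0.428). That term passed without Col6a2-/- female 4 at 5 weeks (-0.13, 0.00332). As for Fgf21, limma's pooled SE rests on groups mostly at 0 (7 of the 8 Col6a2-/- libraries at 25 weeks), while the SD in Col6a2-/- at 5 weeks was 0.096 on the log2(TPM + 1) scale (n = 8), so its limma p-values are too small as well.

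**Figure D2:**
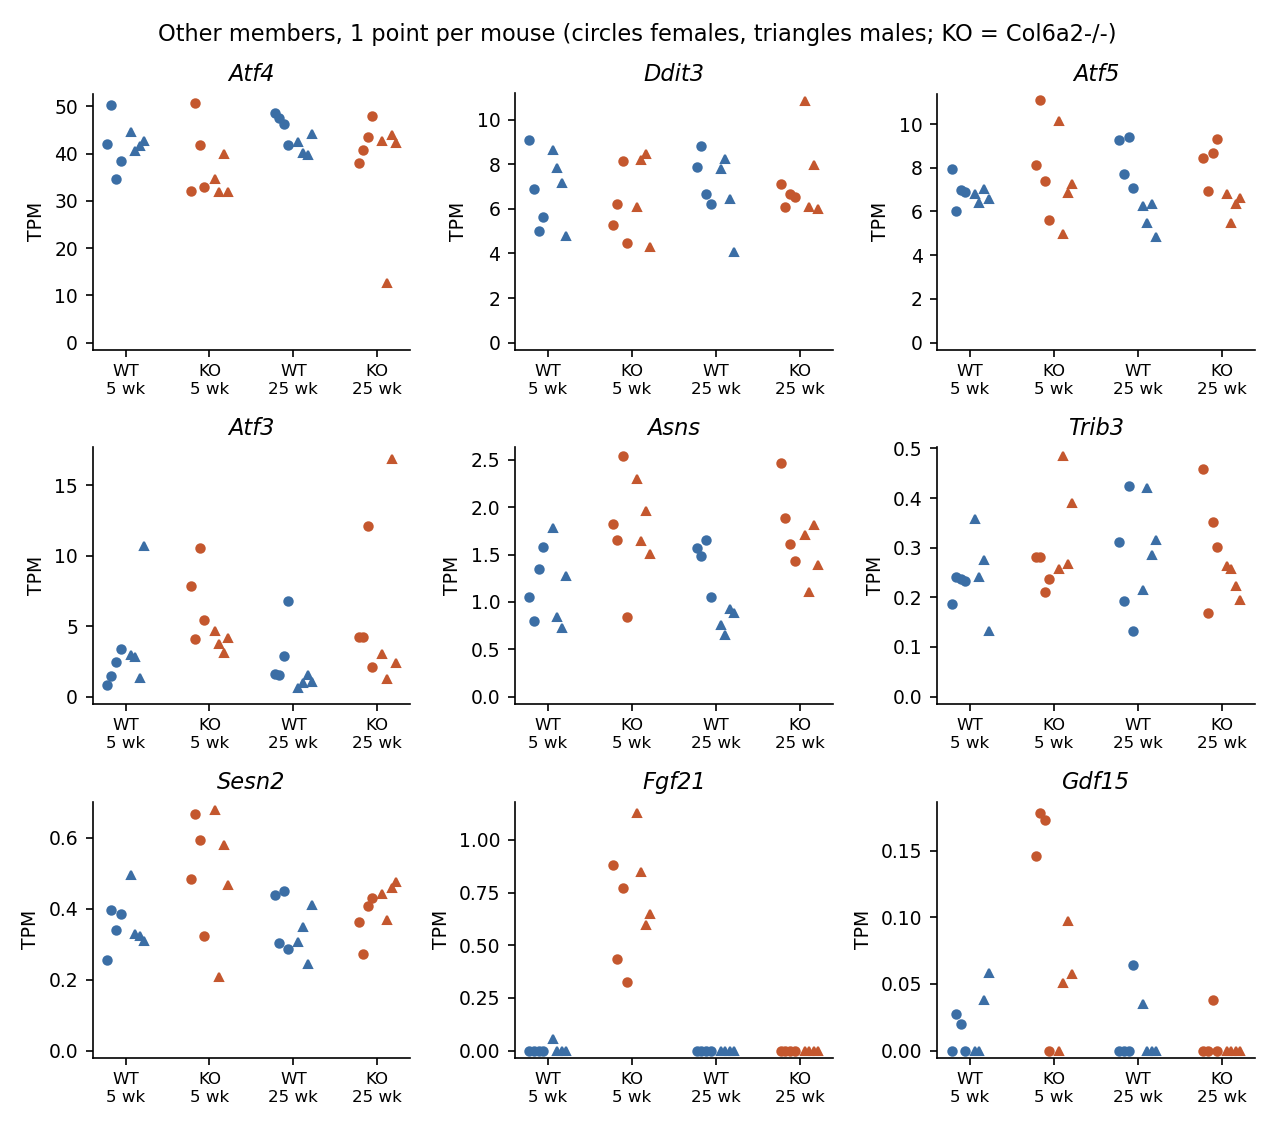
Levels in TPM (vertical axes, linear and scaled to each gene) of the other 9 members in each of the 32 mice, grouped by genotype and age. Circles are females and triangles are males, and KO stands for Col6a2-/-. Fgf21 is above 0.3 TPM only in the 8 Col6a2-/- mice at 5 weeks, while the genotypes overlap in the other 8 genes at both ages.

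Atf4 (ENSMUSG00000042406, GRCm38 chromosome 15, 80255184 to 80257541), the transcription factor at the centre of the pathway, was the most abundant member. At 5 weeks WT libraries ran from 34.7 to 50.2 TPM with a median of 41.8, and Col6a2-/- libraries from 31.9 to 50.8 with a median of 33.8. The ranges overlapped, with 5 Col6a2-/- libraries under all WT libraries and 1 above them. The change was -0.18 (SE 0.160, limma adjusted p 0.404, 95% interval -0.51 to 0.14), and -0.37 with median-of-ratios size factors (limma adjusted p 0.0530). At 25 weeks WT libraries ran from 39.7 to 48.6 TPM and Col6a2-/- libraries from 12.6 to 48.0, with medians of 43.3 and 42.5. Col6a2-/- male 2 alone had 12.6 TPM, and the 25-week change of -0.25 (limma adjusted p 0.417) was -0.034 without it.

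Ddit3 (ENSMUSG00000025408, GRCm38 chromosome 10, 127290774 to 127296288) encodes CHOP, a partner of ATF4 linked to cell death under prolonged stress. WT libraries ran from 4.79 to 9.09 TPM at 5 weeks (median 7.05) and Col6a2-/- libraries from 4.28 to 8.49 (median 6.16). At 25 weeks the ranges were 4.06 to 8.85 (median 7.22) and 5.99 to 10.8 (median 6.61). The groups overlapped throughout. The change was -0.099 at 5 weeks (limma adjusted p 0.646, 95% interval -0.40 to 0.21) and 0.031 at 25 weeks (0.935, -0.27 to 0.34). With quantile normalization the 5-week value was -0.27 (limma adjusted p 0.166), and with median-of-ratios size factors the 25-week value turned to -0.076, neither of them called. Ddit3 overlaps Mars, which encodes a tRNA synthetase, and 2 other annotated genes, and use of strand is not given in the sources used here, so its level is uncertain.

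Atf5 (ENSMUSG00000038539, GRCm38 chromosome 7, 44812256 to 44816658), a factor controlled by translation like ATF4 and tied to mitochondrial stress, ran from 6.02 to 7.92 TPM in WT (median 6.85) and from 4.97 to 11.1 in Col6a2-/- (median 7.33) at 5 weeks. At 25 weeks it ran from 4.84 to 9.39 (median 6.70) and from 5.45 to 9.32 TPM (median 6.88). The genotype change was 0.12 at 5 weeks (limma adjusted p 0.430) and 0.059 at 25 weeks (0.808), and its direction turned with median-of-ratios size factors, to -0.053 and -0.046. At 25 weeks WT females had 8.35 ± 1.15 TPM and WT males 5.73 ± 0.712 (SD, n = 4). Over all groups males were lower by -0.25, which was not called (limma adjusted p 0.0755). It passed with median-of-ratios size factors (0.00617), without the 100 most abundant genes (0.0107), with quantile normalization (0.0063) and with FPKM (0.0278), and when Col6a2-/- female 4 (0.0226) or male 1 (0.0186) at 5 weeks was left out. Atf5 overlaps Il4i1 and Nup62 on the other strand, so its level is uncertain in the same way.

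Atf3 (ENSMUSG00000026628, GRCm38 chromosome 1, 191170296 to 191218039), a stress-induced factor that both ATF4 and other pathways can raise, was uneven among mice. At 5 weeks WT females had 0.792, 1.47, 2.44 and 3.39 TPM and Col6a2-/- females had 7.85, 4.08, 10.5 and 5.42 TPM. WT males had 2.95, 2.79, 1.33 and 10.7 TPM, and Col6a2-/- males had 4.67, 3.76, 3.10 and 4.13 TPM. The females did not overlap, and the males did because of WT male 4. How many of all tested genes separate in this way within a sex was not counted. The change was 0.76 (SE 0.351, limma adjusted p 0.107), with 5 of 8 libraries above the WT mean TPM of their sex (7 of 8 above the mean on the log2 scale). It was 0.99 without WT male 4 (limma adjusted p 0.0363). In females alone it was 1.41 (0.0590) and in males 0.12 (0.917).

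At 25 weeks Atf3 ran from 0.637 to 6.77 TPM in WT (median 1.53) and from 1.22 to 16.9 TPM in Col6a2-/- (median 3.64). Col6a2-/- male 3 with 16.9 TPM and female 3 with 12.1 TPM lay above every WT library, and the remaining 6 overlapped them. The change was 0.93 (SE 0.351, limma adjusted p 0.126), and 0.62 without Col6a2-/- male 3 (0.291). Atf3 overlaps Gm24748 on the other strand.

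Trib3 (ENSMUSG00000032715, GRCm38 chromosome 2, 152337422 to 152344032), a pseudokinase that restrains ATF4 and AKT, ran from 0.131 to 0.484 TPM over all libraries, and the groups overlapped at both ages. Its change was 0.070 at 5 weeks (limma adjusted p 0.410, fit without a TPM limit) and -0.0099 at 25 weeks (1.0). Sesn2 (ENSMUSG00000028893, GRCm38 chromosome 4, 132492032 to 132510501), which encodes a leucine sensor that restrains mTORC1, ran from 0.208 to 0.678 TPM. At 5 weeks 4 Col6a2-/- libraries lay above every WT library and 1 under them. The change was 0.14 (limma adjusted p 0.107), and it passed without Col6a2-/- female 4 (0.0272) or male 2 (0.0120) and was 0.030 with quantile normalization (0.793). Sesn2 shares its strand with an overlapping gene, Gm12981.

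**Figure D3:**
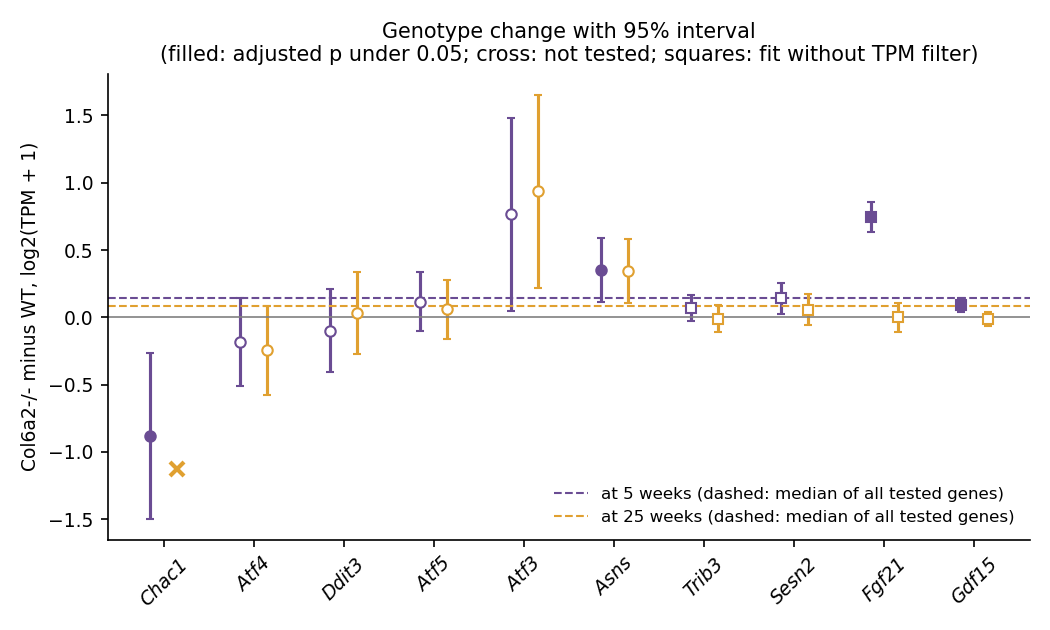
Genotype change of each member, Col6a2-/- minus WT on the log2(TPM + 1) scale (vertical axis), at 5 weeks (violet) and 25 weeks (orange), with the 95% interval from limma. Chac1 at 25 weeks (-1.13) is a cross without interval because that contrast chose the gene, and the dashed lines are the median of the tested genes above the TPM limit (0.15 and 0.082). Trib3, Fgf21, Gdf15 and Sesn2 come from the fit without a TPM limit, whose medians were 0.020 and 0.011. The intervals of Fgf21 and Gdf15 at 5 weeks rest on limma's pooled SE and are too narrow. Filled symbols, an adjusted p under 0.05, are Chac1, Asns, Fgf21 and Gdf15 at 5 weeks.

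In the remaining contrasts limma called none of the 6 members above the TPM limit. Counts over 5 leave out Chac1, which was chosen on its 25-week level. At 25 weeks 0 of 5 were called (2 with an unadjusted p under 0.05, Atf3 and Asns), against 4.70% of tested genes. For genotype by age, age in WT and age in Col6a2-/- the counts were 0 of 5 each, with 0 at an unadjusted p under 0.05, against 0.492%, 19.8% and 34.2% of tested genes. For sex 0 of 6 were called (1 at an unadjusted p under 0.05, Atf5), against 3.05%, and for genotype by sex 0 of 6 (0 unadjusted), against 0.0156%. Within a sex at 5 weeks 0 of 6 were called in females (1 unadjusted, 12.9% of tested genes) and in males (2 unadjusted, 5.03%). At 25 weeks 0 of 5 were called in females (0 unadjusted, 0.0078%) and in males (2 unadjusted, 3.03%).

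Other genes of the pathway were read from lists. Among eIF2 kinases and their regulators 1 of 14 tested genes was called at 5 weeks, against 25.4% of all tested genes: Eif2ak2, the kinase PKR that senses double-stranded RNA, rose from 2.33 ± 0.577 to 3.83 ± 1.63 TPM (SD, n = 8; change 0.49, limma adjusted p 0.00752). With quantile normalization 1 gene of this list was also lower, and 4 genes were higher without Col6a2-/- female 4 and 3 without Col6a2-/- male 4 at 5 weeks. In amino acid supply 1 gene rose and 2 fell of 13, where 23.2% of all tested genes were called higher and 2.14% lower, and 4 rose without Col6a2-/- female 4 at 5 weeks. Slc38a2, a transporter of small neutral amino acids, rose by 0.50 (limma adjusted p 0.0139), whereas Gpt2, a mitochondrial alanine transaminase, fell by 0.60 (0.00617) and Cth, which makes cysteine, fell by 0.31 (0.0388). Slc38a2 was not called with quantile normalization, which gave 0 higher and 3 lower genes in this list.

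Of 12 cytosolic tRNA synthetases, a group that ATF4 also targets, 0 were called at 5 weeks (1 at an unadjusted p under 0.05) and their median change was 0.044, below the 0.15 of all genes. With quantile normalization 3 of them were lower, and 5 with median-of-ratios size factors. Among 12 other targets of ATF4 and CHOP, 2 were higher, where 23.2% of all tested genes were called higher and 2.14% lower: Eif4ebp1, a brake on cap-dependent translation (0.25, limma adjusted p 0.0196), and Jdp2, a repressor of the AP-1 family (0.27, 0.0462). Neither was called with quantile normalization, which called 0 of the list. With 1 library left out the count ran from 0 (without Col6a2-/- male 1 at 5 weeks) to 4 (without Col6a2-/- female 4). In mitochondrial proteins of stress and quality control 1 of 13 was higher, the protease gene Afg3l2 (0.23, 0.0251), and 0 were higher with any of the other scalings, while 2 were lower with median-of-ratios size factors. With 1 library left out 0 to 2 were higher: 0 without WT male 3 or 4 or Col6a2-/- male 1 or 3 at 5 weeks, and 2 without WT male 1, Col6a2-/- female 4 or Col6a2-/- male 4 at 5 weeks.

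Genes of a neighbouring branch rose. Of 17 tested chaperones and regulators of the ATF6 and XBP1 arms, which respond to unfolded protein in the endoplasmic reticulum independently of eIF2α, 13 were higher and 0 lower at 5 weeks (23.2% and 2.14% of all tested genes), with a median change of 0.44 against 0.15 for all genes. Edem1, which directs misfolded glycoproteins to degradation, rose from 1.88 ± 0.399 to 3.50 ± 0.954 TPM (change 0.63, limma adjusted p 0.000784; SD, n = 8). Pdia4, a disulphide isomerase, rose from 8.73 ± 1.86 to 15.2 ± 5.05 TPM (0.68, 0.00148), and Pdia6, another, from 16.4 ± 3.03 to 25.3 ± 7.14 TPM (0.56, 0.00222). Atf6, the sensor of its arm, rose by 0.34 (0.00179). The count was 10 to 14 under the other scalings, 8 with a limit of 5 TPM and 11 to 16 with 1 library left out. At 25 weeks 2 were higher, Pdia4 (0.51, 0.0455) and Ern1 (0.27, 0.0461), against 4.47% of all tested genes, and this count ran from 0 to 7 with 1 library left out and differed by over 1.5 times in 25 of the 32 such fits. It was 0 to 5 under the other scalings, 0 with pseudocount 5 and 8 with only the 16 libraries at 25 weeks, and 11 of the 17 genes had an unadjusted p under 0.05.

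**Figure D4:**
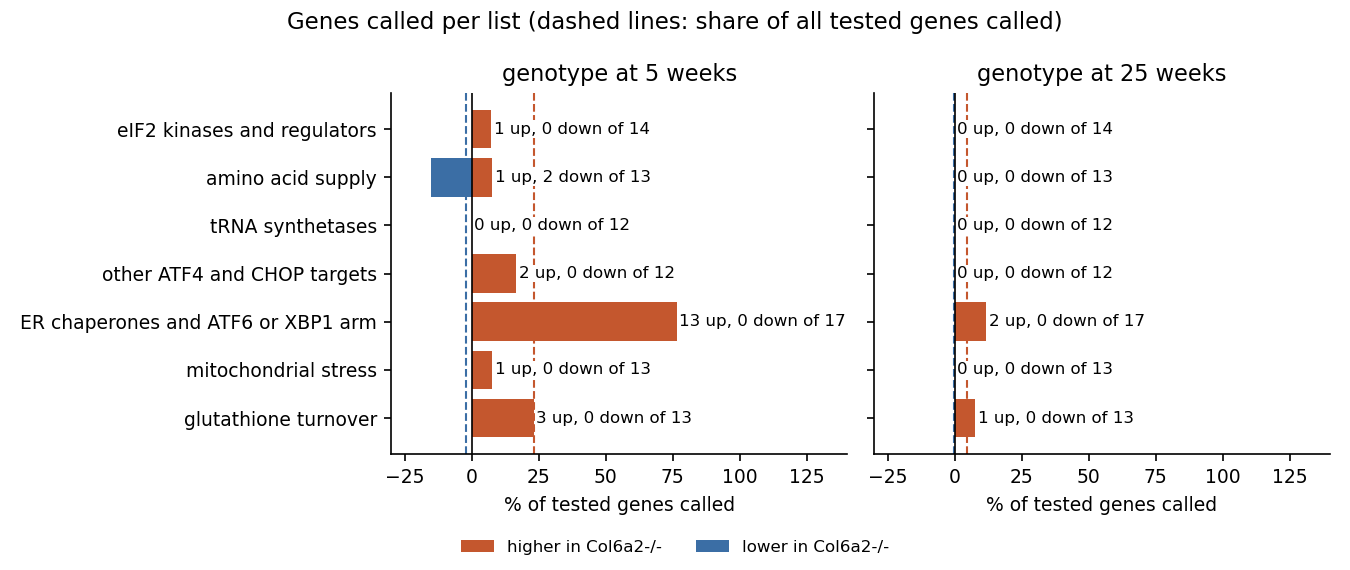
Share of each list's tested genes called higher (to the right) or lower (to the left) in Col6a2-/- muscle at 5 and 25 weeks, in percent, with the counts printed beside the bars. Dashed lines are the shares of all tested genes called higher and lower. The endoplasmic reticulum list has 13 of 17 genes higher at 5 weeks, and the tRNA synthetases have 0 of 12.

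Glutathione turnover, the process that Chac1 serves, had 3 of 13 tested genes higher and 0 lower at 5 weeks, a share close to the 23.2% of all tested genes called higher. With 1 library left out 2 to 6 were higher, with 6 without Col6a2-/- female 4 and 5 without Col6a2-/- male 4 at 5 weeks. Anpep, an aminopeptidase that cleaves the dipeptide left from glutathione, rose from 2.13 ± 0.298 to 4.41 ± 1.92 TPM (SD, n = 8; 0.72, limma adjusted p 0.00122). Cndp2, a dipeptidase acting on the same product, rose by 0.36 (0.0117), and Gss, glutathione synthetase, by 0.25 (0.0363). At 25 weeks Anpep alone was called (0.58, 0.0278), and the list had 0 to 2 genes higher with 1 library left out. With quantile normalization 2 of the list were higher at 5 weeks, and 1 was higher and 2 lower at 25 weeks.

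Markers of cell types moved with the genotype in the same libraries. All 10 macrophage markers were higher at 5 weeks, with a summed TPM of 113 to 394 in Col6a2-/- against 73.8 to 123 in WT, and 9 of 10 at 25 weeks (125 to 232 against 48.9 to 132), when 4.47% of all tested genes were called higher. Of 10 genes of immature fibres 8 were higher at 5 weeks and 1 at 25 weeks, although their summed TPM overlapped (507 to 1931 against 580 to 3016 at 5 weeks). Their 25-week count was 1 to 2 under the other scalings and with 1 library left out. Fibroblast markers had 4 of 10 higher at 5 weeks (2 to 4 under the other scalings) and 3 of 10 at 25 weeks (Col3a1, Pdgfra and Lum). Under the other scalings 2 to 3 were higher at 25 weeks and at most 1 was lower, and 2 to 3 were higher with 1 library left out. Endothelial markers had 4 of 8 higher at 5 weeks, whereas 4 of 10 myofibre markers were lower, against 23.2% of all tested genes called higher and 2.14% lower. Under the other scalings 0 to 3 endothelial markers were higher, and 2 to 5 with 1 library left out. With quantile normalization 1 myofibre marker was lower (6 with median-of-ratios size factors). Adipocyte, Schwann cell, tenocyte and erythrocyte markers had 0 called at either age. At an unadjusted p under 0.05 they had 0, 0, 1 and 0 at 5 weeks, and 1, 0, 1 and 0 at 25 weeks. No marker was at 0 in every library of a genotype and age. Their part in the changes of Chac1, Asns, Fgf21, Gdf15 and the endoplasmic reticulum genes was not tested.

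Within groups, the genes whose levels followed Chac1 most closely among 5396 genes with a mean of at least 5 TPM were Mt2 (Pearson r 0.734), Arrdc2 (0.718), Mt1 (0.717), Pde4d (0.710) and Ctgf (0.704). This likeness is over 32 libraries after each group's mean log2(TPM + 1) was subtracted, against a median r of -0.143 over all 5396 genes. The libraries share scaling and depth, so these values are a description. With median-of-ratios size factors the same 5 genes led (0.757 for Mt2), against a median of 0.055. Mt1 and Mt2 encode metallothioneins, which bind zinc and copper, and Arrdc2 encodes an arrestin-domain protein.

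Across groups the order changed. Over the 8 group means the closest genes by Pearson r were Gpcpd1 (r 0.987), Ethe1 (0.975), Ybx3 (0.966), Mylk2 (0.963) and Mospd1 (0.958), with a median of -0.546 over all genes. By Spearman correlation the 5 closest genes were others, apart from Gpcpd1 (0.976). Mt2 (Pearson r -0.800) and Mt1 (-0.846) ran against Chac1. Mt2 rose in Col6a2-/- muscle from 3.59 ± 3.37 to 19.4 ± 10.6 TPM at 5 weeks (2.23, limma adjusted p 1.7e-06) and from 2.12 ± 0.777 to 7.24 ± 2.25 TPM at 25 weeks (1.39, 0.0045; SD, n = 8). The group means include the 25-week levels for which Chac1 was chosen as lower in Col6a2-/-, so a gene higher in Col6a2-/- runs against it by that choice, and nothing is read from the signs across groups.

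**Figure D5:**
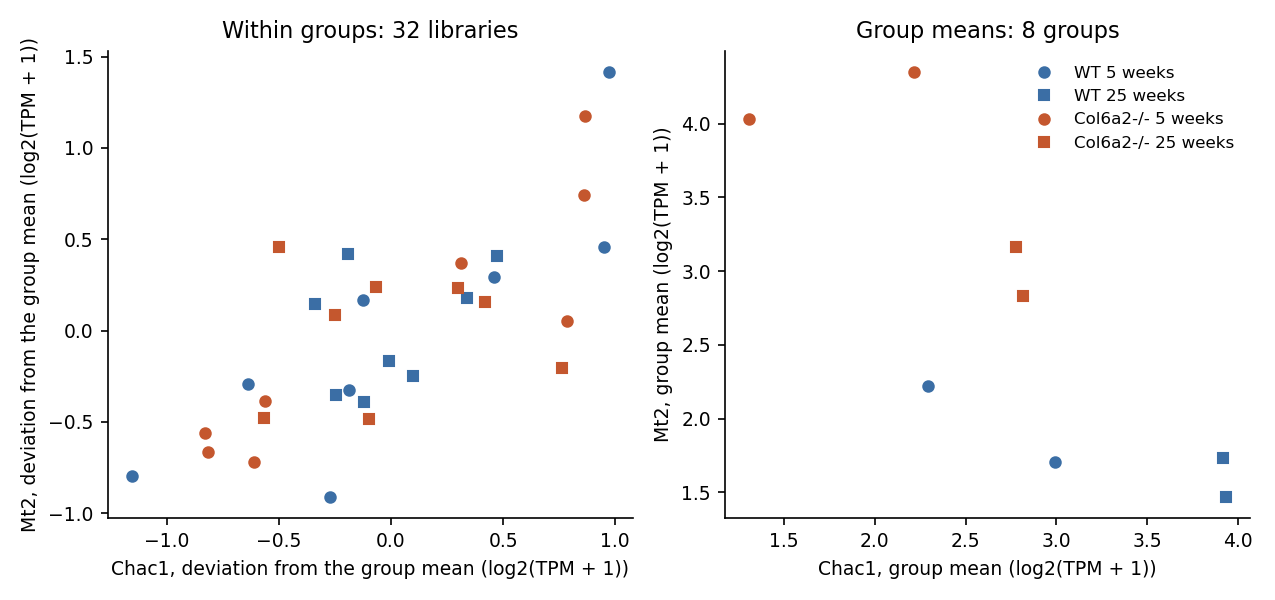
Mt2 against Chac1 on the log2(TPM + 1) scale, as the deviation of each of the 32 libraries from its group mean (left, r 0.734) and as the 8 group means (right, r -0.800). Blue is WT and orange Col6a2-/-, with circles for 5 weeks and squares for 25 weeks. The points rise from left to right within groups and fall across groups.

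Among the tested members themselves, the within-group r of Chac1 was 0.064 with Atf3, 0.060 with Atf4, 0.093 with Atf5, -0.243 with Asns and -0.484 with Ddit3 (32 libraries, group means subtracted). In the same order these were 0.136, 0.171, 0.277, -0.177 and -0.388 with median-of-ratios size factors. Atf4 had r 0.329 with Atf5 and 0.330 with Ddit3, which were 0.013 and 0.153 with median-of-ratios size factors. Atf3 and Asns had r 0.334 within groups and 0.831 over the 8 group means. These values share libraries and scaling and are given as a description.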

How the data were processed

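RNA from quadriceps of 32 mice was sequenced in 1 library each. Per the submitters' processing notes, FastQC, MultiQC, Trimmomatic, HISAT2, SAMtools and StringTie were used with GRCm38 (mm10); versions, annotation and strand setting are not given in the sources used here. The deposited tables hold TPM and FPKM values, scaled by the authors for length and library total, and coverage, the authors' mean read depth over a gene without scaling, per the file headers. TPM rows that shared a gene ID were summed.

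Genes that reached 1 TPM in 4 or more libraries (12817) were fitted as log2(TPM + 1) with limma 3.58.1 (R 4.3.3): 8 group means, eBayes with trend, 11 contrasts, two-sided tests, Benjamini-Hochberg adjustment over all tested genes. Members under that level came from the same fit of all 32958 genes not at 0 in every library. TPM are not counts, so no count model was used. The fit was tested on simulated data. Promoter motifs were searched and figures drawn with Python 3.11.15, numpy 2.4.6, pandas 2.3.3 and matplotlib 3.10.9. Precision is limited by 4 mice per group, and true read depth is unknown; FPKM and coverage gave relative depth, and FPKM also replaced TPM in an alternative fit.

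The members and the 18 lists (9 of pathways or responses, 9 of cell type markers) were chosen with earlier results of these data known. Named genes are the members, Col6a2, genes overlapping a member and the 3 fibroblast markers called at 25 weeks. Also named are at most 4 called genes per pathway list and contrast with the smallest adjusted p. The 5 genes most like Chac1 by each of 2 measures are named too. Alternatives were other pseudocounts, TPM limits, scalings, FPKM, a robust prior, a replicate block, fits of 16 libraries and each library left out.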

Additional observations from a re-analysis of the deposited data

Results flagged for a closer look

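In groups of 4 mice, chance alone puts 1 mouse far from the other 3 by Dixon's 95% limit in about 1 of 20 groups. Of the 74 groups of member values that could be examined, 8 had such a mouse. In 4 of these 8 the other 3 mice were listed at 0, where any value above 0 passes the limit. The count of 8 therefore cannot be set against that rate. Atf3 had 16.9 TPM in Col6a2-/- male 3 at 25 weeks, against 1.22 to 3.04 in the other 3 mice. Atf4 had 12.6 TPM in Col6a2-/- male 2 at 25 weeks, against 42.3 to 44.1 in the others. Trib3 had 0.187 TPM in WT female 1 at 5 weeks, against 0.233 to 0.241. Sesn2 had 0.495 TPM in WT male 1 at 5 weeks, against 0.308 to 0.329. In 4 groups 1 mouse stood above others listed at 0: Fgf21 had 0.0566 TPM in WT male 1 at 5 weeks, and Gdf15 had 0.0641 in WT female 4, 0.0346 in WT male 1 and 0.0381 in Col6a2-/- female 3, all at 25 weeks.

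The Fgf21 genotype change differed between the ages by -0.74 on the log2(TPM + 1) scale (limma adjusted p 1.4e-06): it was 0.74 at 5 weeks, with all 8 Col6a2-/- libraries above 0, and all 16 libraries at 25 weeks were listed at 0. The limma p-value is too small for the reason given for Fgf21 above, and no permutation test of this term was run.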

How the results depend on the processing

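Of the 6 members above the TPM limit, 2 were called at 5 weeks. The count was 0 in the fit with no TPM limit and with only the 16 libraries at 5 weeks, and 1 with a limit of 5 TPM, with median-of-ratios size factors, without the 100 most abundant genes and with quantile normalization; with 1 library left out it ran from 0 to 2. At 25 weeks the count of 0 was 1 with only the 16 libraries at 25 weeks, and 0 to 1 with 1 library left out. For sex the count of 0 was 1 with median-of-ratios size factors, without the 100 most abundant genes, with quantile normalization and with FPKM, and 0 to 1 with 1 library left out. The cause was not tested. The counts for genotype by age, both age contrasts and genotype by sex, over these members (Chac1 left out of genotype by age and of age), were 0 in every fit. Asns had no value under the limit of 5 TPM. No member's called change turned its direction.

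The labels share replicate numbers across groups. Over 112 pairs of same-numbered libraries of different groups the mean r of their deviations was 0.031, the lowest was -0.34 and 35 were over 0.1, against a mean of -0.010 and 65 over 0.1 among 336 pairs with different numbers, and 10 of 32 libraries correlated best with their own number. With the number as a replicate block, 2 members were called at 5 weeks (Chac1 adjusted p 0.0316, Asns 0.0178), and 3293 genes.

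All genes called at 5 weeks numbered 3253 (1553 with a limit of 5 TPM, 1878 with only the 16 libraries, 2207 to 4749 with 1 library left out). Called genes at 5 weeks were 91.6% higher, against 51.1% with median-of-ratios size factors, 64.8% without the 100 most abundant genes and 47.0% with quantile normalization. At 25 weeks 603 genes were called (317 with pseudocount 5 to 1272 with median-of-ratios size factors, and with 1 library left out 270 without Col6a2-/- male 1 at 25 weeks to 983 without Col6a2-/- female 2 at 5 weeks), 95.02% of them higher, against 58.0% with median-of-ratios size factors and 58.8% with quantile normalization. Levels under 1 TPM (Trib3, Fgf21, Gdf15, Sesn2) rest on few reads, and, as for Chac1 and Asns, the size of a change depends on the pseudocount.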

Other observations

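Response genes outside the stress pathway moved in the same libraries. Of 17 tested genes of feeding and glucocorticoid response, 7 were higher and 0 lower in Col6a2-/- muscle at 5 weeks (23.2% and 2.14% of all tested genes), and 4 to 6 were higher under the other scalings. Cdkn1a, a cell cycle inhibitor, rose from 2.70 ± 1.24 to 13.7 ± 5.02 TPM (SD, n = 8; 1.98, limma adjusted p 1.1e-07), and Fbxo32, an atrophy ubiquitin ligase, from 10.0 ± 3.50 to 20.0 ± 5.08 TPM (0.97, 1.5e-05). Mt1 rose by 1.31 (3.7e-05). For genotype by age 2 of the 17 were called with a negative term, against 0.421% of all tested genes. They were Fbxo32 (-1.13, limma adjusted p 0.00291) and Cdkn1a (-1.53, 0.00801). Of 10 immature fibre markers 5 were called so as well, and Fgf21 was in the fit without a TPM limit. At 25 weeks 2 of the feeding and glucocorticoid list were higher, Mt2 and Mt1, against 4.47% of all tested genes.

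Of 12 tested immediate early genes, which rise within minutes of a stimulus, 4 were higher at 5 weeks, against 23.2% of all tested genes: Junb (0.82, limma adjusted p 0.00287), Zfp36 (0.49, 0.00804), Ier2 (0.30, 0.0206) and Egr1 (0.52, 0.035). This count ran from 2 to 5 with 1 library left out. At 25 weeks 3 were higher, against 4.47% of all tested genes and 0 to 6 with 1 library left out, Junb (0.74, 0.0241), Zfp36 (0.46, 0.0432) and Klf4 (0.69, 0.0485). With quantile normalization 1 was higher at each age. Atf3, a member that is also an immediate early gene, was not called at either age.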
